A study of Homo sapiens with 23 samples.

Results

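Transcription after 24 h of TRPS1 degradation was compared with transcription after 4 h in the luminal breast cancer line T47D, which carries estrogen receptor, with 6 of the 23 PRO-seq libraries of the series. The libraries were chosen by their labels: replicates 2, 3 and 4 at each time, since replicate 1 has no 24 h library among the samples used here. Every library came from dTAG-TRPS1 Clone 28, a single clone with a degron tag inserted in the native TRPS1 gene, so the 3 replicates are cultures of one clone and not independent clones. Both compared groups received 50 nM dTAG-13 together with 50 nM dTAG-V-1 (called dTAG here), for 4 h or for 24 h. The 3 DMSO libraries and the 9 libraries after 0.5, 1 and 2 h of dTAG from the same replicates show where each gene started. According to the labels, replicates were treated and harvested at different times of a day, and all time points of 1 replicate were harvested together. Each replicate was therefore a block in the comparison.

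TRPS1 is a GATA-family transcription factor that represses its targets, and the dTAG ligands bring the tagged protein to ubiquitin ligases that mark it for destruction. PRO-seq maps RNA polymerases in the act of transcription, so a count follows the synthesis of RNA at the time of harvest and not the amount of stored mRNA. Genes that respond directly to the loss of a factor can move within the first hours, whereas a day leaves time for later rounds of regulation and for cells to pass through the cell cycle. Among the pathways described here, cholesterol synthesis is controlled by SREBP2, a membrane-bound factor that is released when sterols run low and is held back by the INSIG proteins when they are plentiful. Mitotic genes are transcribed in waves late in the cell cycle and are repressed in resting or arrested cells, in part through a promoter element called the cell cycle genes homology region.

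Total counts in the 6 libraries ranged from 8967338 to 17571616. The labelled cell type held: all 22 luminal epithelial markers had counts in every library, with a summed level of 4655 to 4850 CPM (the usual unit of counts scaled to a common library total, here with TMM-scaled library sizes) at 4 h and 4690 to 4958 CPM at 24 h. The 21 basal and mesenchymal markers summed to 202 to 205 CPM at 4 h and 208 to 214 CPM at 24 h, with 0 to 3 of them without a read in a library. The 18 immune and endothelial markers summed to 23.1 to 27.1 CPM and 25.6 to 27.4 CPM, with 3 to 5 without a read. Of the 14 basal and 6 immune or endothelial markers with enough counts to test, edgeR called 0 between the times, with 0 and 1 at an unadjusted p under 0.05, and DESeq2 called 0. The immune marker was CD68, with a log2 fold change of 0.28 ± 0.11 (edgeR adjusted p = 0.204). TRPS1 itself cannot check the labels, because dTAG removes the protein and leaves the gene in place. Its transcription stood at 9926, 11165 and 11182 CPM at 4 h, then at 9935, 11776 and 12162 CPM at 24 h in replicates 2, 3 and 4, a difference that did not pass the test (log2 fold change 0.06 ± 0.03 (SE), edgeR adjusted p = 0.37). Both times stood above DMSO, where TRPS1 was at 8163, 10301 and 9527 CPM. The log2 difference from DMSO was 0.21 ± 0.03 at 4 h and 0.28 ± 0.03 at 24 h (edgeR adjusted p = 0.00117 and 4.23e-05, fit of 18 libraries).

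Of 24673 genes tested, 1056 (4.28%) differed between 24 h and 4 h at an adjusted p under 0.1 (edgeR's quasi-likelihood test with Benjamini-Hochberg adjustment over all genes, n = 3 replicates per time). Of these, 454 (1.84% of the genes tested) were higher and 602 (2.44%) were lower at 24 h. Most changes were modest: a median log2 fold change of 0.26 was found among genes called higher and one of -0.20 among those called lower, against -0.003 over all genes, and 57 genes rose and 48 fell by more than 0.5. In 441 of the 454 risers and 570 of the 602 fallers, all 3 same-numbered pairs moved in the called direction. This count and the next follow in part from the calling, which used the same libraries. The 4 h and 24 h libraries did not overlap for 381 of the risers and 377 of the fallers, while 13.4% of all tested genes had no overlap. The calls rested on the harvest block and on the test: 35 genes (6 higher, 29 lower, all among the 1056) passed without the block, and 72 (14 higher, 58 lower, all among the 1056) passed with DESeq2 and the same block. Scaling to total counts alone turned the split from 454 higher and 602 lower to 578 higher and 486 lower.

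The DMSO libraries, which entered neither side of the comparison, tell what faded from what appeared. A gene is called fading here where its mean log2 level in DMSO lay nearer to the 24 h than to the 4 h level. Its difference from DMSO was then smaller at 24 h than at 4 h, though it could lie on the other side of DMSO. A gene is called appearing where DMSO lay nearer to the 4 h level. Among the 602 genes called lower at 24 h, 201 were fading and 401 (66.6%) were appearing. Among the 454 called higher, 233 were fading and 221 (48.7%) were appearing, a share that became 55.2% after scaling to total counts alone. For 408 of the genes called lower and 317 of those called higher, DMSO lay between the 4 h and 24 h levels. Such genes stood on opposite sides of DMSO at the 2 times, whichever class they fell in. DMSO lay outside the span of the other 2 levels on the 4 h side for 132 of the genes called lower and 70 of those called higher, which are genes that had moved by 4 h and moved further by 24 h. DMSO lay outside on the 24 h side for 62 and 67, which are genes whose early change had shrunk without reaching the starting level. A gene near the dividing line changes class with little noise, and the classes are given as a description with no test.

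**Figure D1:**
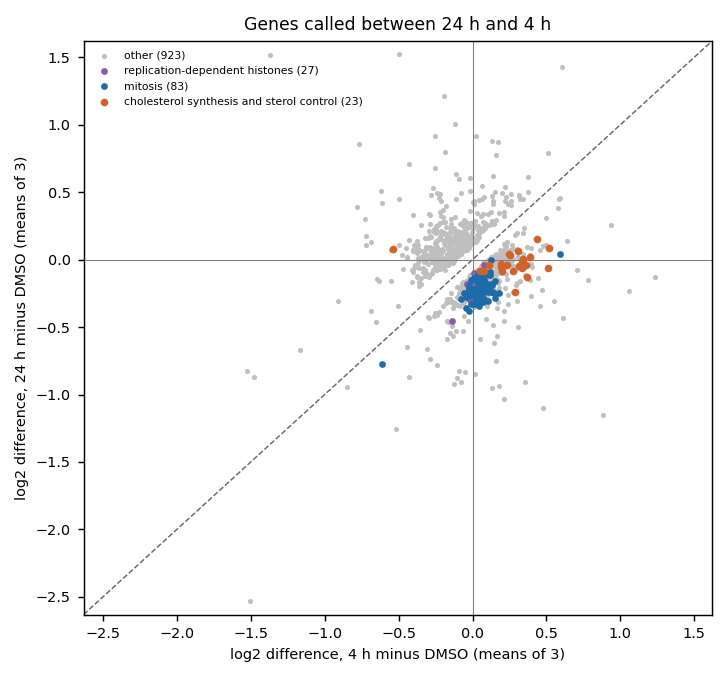
The 1056 genes called between 24 h and 4 h, each placed by its mean log2 difference from DMSO at 4 h (horizontal axis) and at 24 h (vertical axis), with the dashed line where both are equal. The 23 called cholesterol genes lie mostly to the right of 0 on the horizontal axis and near 0 on the vertical one, while the 83 mitosis genes lie near 0 on the horizontal axis and below 0 on the vertical one, apart from PSRC1 and CKAP5.

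Cholesterol synthesis was the list with the most fading genes among the 24 gene lists examined. Of 32 genes for sterol synthesis and its control, 22 fell from 4 h to 24 h and 1 rose, and 20 of the 22 fell towards the DMSO level. The list had a median log2 fold change of -0.24, beside -0.003 over all genes, and 68.8% of its members were called lower, beside 2.44% of all genes. Measured in each library against the DMSO library of the same replicate, the list's median log2 difference was 0.24, 0.25 and 0.21 at 4 h in replicates 2, 3 and 4, and -0.09, -0.01 and 0.004 at 24 h. The medians were -0.04, 0.003 and -0.01 at 0.5 h, -0.01, 0.08 and 0.05 at 1 h, and 0.23, 0.20 and 0.19 at 2 h. Without the harvest block 7 of the 22 genes passed, and 8 passed with DESeq2.

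HMGCS1, which joins acetyl groups at the entry of the pathway, was transcribed at 60.2, 64.6 and 62.0 CPM in DMSO, 89.0, 93.1 and 84.9 CPM at 4 h, then 63.1, 69.6 and 65.8 CPM at 24 h in replicates 2, 3 and 4. All 3 libraries at 4 h stood above every DMSO and 24 h library. The fall from 4 h was -0.43 ± 0.04 on the log2 scale (edgeR adjusted p = 1.97e-07). IDI1, which makes the activated isoprene unit, fell from 80.6, 80.2 and 74.2 CPM to 62.2, 61.3 and 59.8 CPM (-0.36 ± 0.04, edgeR adjusted p = 4.16e-06). IDI2-AS1 overlaps IDI1 on the opposite strand, and whether reads were counted by strand is not given in the sources used here, so the reads of such pairs cannot be fully told apart. MSMO1, which removes methyl groups from the sterol ring, fell from 40.3, 42.9 and 37.4 CPM to 29.3, 29.8 and 26.2 CPM (-0.50 ± 0.06, edgeR adjusted p = 4.47e-06). In these 3 enzymes the 4 h and 24 h libraries did not overlap.

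By role, 16 of 21 synthesis enzymes fell, with a median of -0.28, and 6 of 11 genes for control, uptake and transport fell while 1 rose. INSIG1, which encodes a protein that restrains SREBP2, fell the most of the list, from 40.5, 31.3 and 33.2 CPM at 4 h to 24.3, 21.7 and 24.5 CPM at 24 h (-0.56 ± 0.07, edgeR adjusted p = 5.58e-06), against 22.4 to 26.6 CPM in DMSO. ABCG1, a transporter that exports cholesterol and is induced when sterols are plentiful, was the one member that rose. It stood at 17.8, 18.4 and 16.7 CPM in DMSO, 10.9, 11.4 and 14.2 CPM at 4 h, then 19.4, 17.4 and 19.2 CPM at 24 h, so it was lowest at 4 h and near DMSO at 24 h (0.61 ± 0.09, edgeR adjusted p = 0.000137). The other exporter of the list, ABCA1, named after its values were seen, had a log2 fold change of 0.37 ± 0.21 and did not pass the test (edgeR adjusted p = 0.457).

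**Figure D2:**
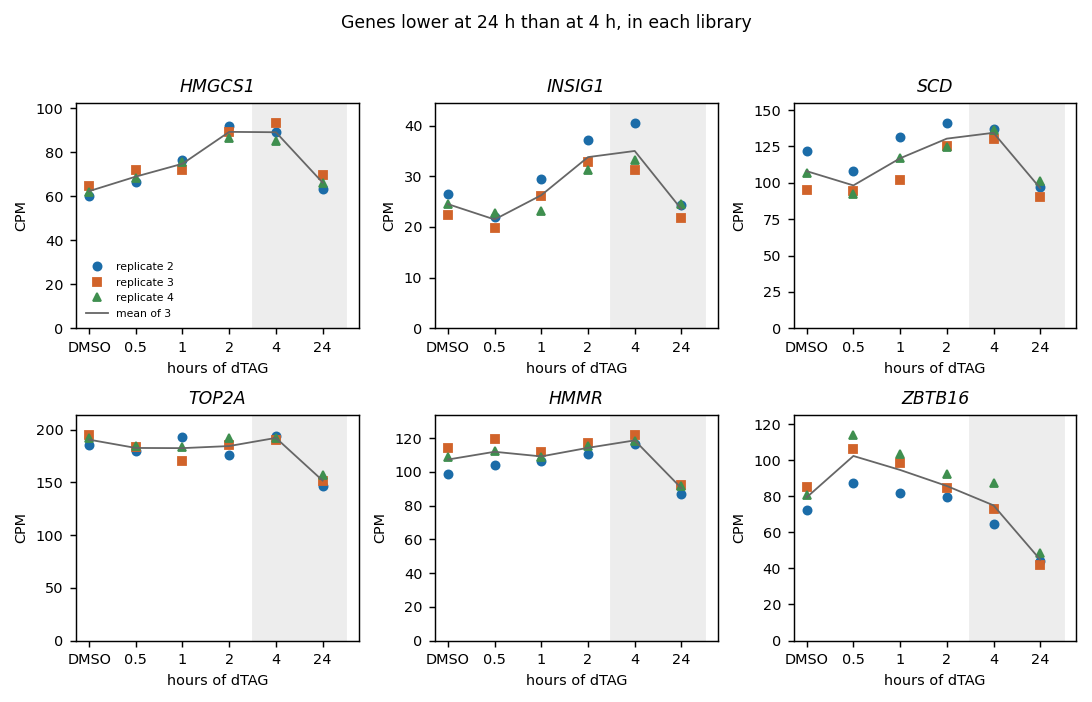
CPM of 6 genes called lower at 24 h than at 4 h, in DMSO and after 0.5 to 24 h of dTAG (shaded: the 2 compared times), with a symbol for each of replicates 2, 3 and 4 and a line through the means. HMGCS1, INSIG1 and SCD rise to 2 and 4 h and come back to the DMSO level by 24 h, whereas TOP2A, HMMR and ZBTB16 stand below the DMSO libraries at 24 h.

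Promoter sequences were read from RefSeq (GRCh38.p14) in windows from 250 bases before to 50 bases after each annotated start, and 14064 of the 24600 symbols tested had 20061 windows. They were searched for CCAAT on either strand, bound by NF-Y, a factor known to act beside SREBP2, and for the sterol element TCACNCCAC on either strand. CCAAT was in 34.5% and the sterol element in 1.03% of all windows. Of the 22 fallen cholesterol genes 17 had a window, too few for a share over the list, so that check is void. A match is a run of letters and not a measured binding site. The 200 bases before the start are shown for 3 fallen genes of the list, in 5′ to 3′ direction of the gene, with matches to either motif in capitals. They are HMGCS1 at chr5:43313413-43313612 (minus strand), MSMO1 at chr4:165327469-165327668 (plus strand) and SREBF2 at chr22:41832905-41833104 (plus strand). SREBF2, which encodes SREBP2 itself and fell by 0.23 on the log2 scale, was picked after its values were seen because its window is the one with the sterol element among the 26 windows of those 17 genes. The shown windows of HMGCS1 and MSMO1 hold CCAAT, or its reverse ATTGG, at several places, and neither holds the sterol element. HMGCS1 has 2 annotated windows, and the other is not shown.
HMGCS1: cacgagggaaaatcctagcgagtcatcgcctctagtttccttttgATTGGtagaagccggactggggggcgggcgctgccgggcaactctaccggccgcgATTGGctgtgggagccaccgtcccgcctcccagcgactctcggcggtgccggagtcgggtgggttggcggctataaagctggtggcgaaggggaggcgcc
MSMO1: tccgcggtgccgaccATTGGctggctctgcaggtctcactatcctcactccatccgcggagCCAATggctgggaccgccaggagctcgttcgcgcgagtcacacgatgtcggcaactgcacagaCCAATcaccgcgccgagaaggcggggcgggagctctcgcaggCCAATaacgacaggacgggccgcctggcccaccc
SREBF2: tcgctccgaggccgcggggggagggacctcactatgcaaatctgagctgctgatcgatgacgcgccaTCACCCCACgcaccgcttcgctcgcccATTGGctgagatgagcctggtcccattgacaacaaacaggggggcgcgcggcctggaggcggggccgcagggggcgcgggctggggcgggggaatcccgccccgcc

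Fatty acid synthesis and desaturation moved the same way in part. Of 22 tested genes, 8 fell (36.4%, beside 2.44% of all genes), 7 of them towards DMSO, and 0 rose (median -0.07). SCD, the desaturase that makes monounsaturated fatty acids, stood at 122, 95.4 and 107 CPM in DMSO, 137, 130 and 136 CPM at 4 h, then 97.4, 90.5 and 101 CPM at 24 h (-0.48 ± 0.04, edgeR adjusted p = 1.44e-09). ACACA, which makes malonyl-CoA, fell from 375, 379 and 381 CPM to 315, 321 and 329 CPM (-0.24 ± 0.03, edgeR adjusted p = 1.48e-05), within the 320 to 335 CPM of DMSO or just below. ACSL1 and HSD17B12, which activate and elongate fatty acids, fell by 0.28 and 0.21. OLMALINC, a long noncoding RNA whose gene at chr10:100373099-100454043 lies downstream of SCD on the same strand, had one of the smallest p-values of all falls. It went from 162, 159 and 150 CPM at 4 h to 121, 113 and 116 CPM at 24 h (-0.44 ± 0.04, edgeR adjusted p = 5.56e-09), and DMSO was at 116 to 122 CPM. Polymerases that had run past the end of SCD and those that started at OLMALINC cannot be told apart in a count per gene. Without the block 1 of the 8 fatty acid genes passed, and the fits without replicate 2 or replicate 3 called 3 to 4 genes of the list lower.

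Mitotic genes mostly fell away from the DMSO level. Of 103 mitotic genes, 83 fell from 4 h to 24 h and 0 rose, with a median log2 fold change of -0.24. For 79 of the 83 the DMSO level lay nearer to the 4 h than to the 24 h level. It was not always close to it: DMSO lay at 0.42 of the way from the 4 h to the 24 h level for ASPM and at 0.37 for HMMR. The called members fell by 0.14 to 0.59, and 80.6% of the list was called lower, beside 2.44% of all genes. Against the DMSO library of the same replicate, the list's median was 0.07, 0.03 and 0.05 at 4 h in replicates 2, 3 and 4 and -0.20, -0.23 and -0.16 at 24 h. At 24 h, 96, 101 and 94 of the 103 genes were below DMSO in the 3 replicates, and at 4 h 28, 38 and 34 were. In a bulk library, fewer cells at the stage that transcribes these genes and less transcription per cell cannot be told apart. Without the block 11 of the 83 passed, 21 passed with DESeq2, and the fit without replicate 3 called 50 genes of the list lower.

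Each class of the mitotic machinery held called falls. All 21 genes for the spindle and cytokinesis fell (median -0.30), as did 12 of 13 motor proteins (-0.25), 17 of 20 genes for chromosome structure and cohesion (-0.23), 16 of 21 kinases, cyclins and checkpoint proteins (-0.27) and 12 of 20 kinetochore or centromere proteins (-0.19). Of 5 transcription factors that drive late cell-cycle genes 3 fell (-0.22), and 2 of 3 genes tied to the anaphase promoting complex fell (-0.21). HMMR, which organizes spindle microtubules, stood at 98.9, 114 and 109 CPM in DMSO, 116, 122 and 118 CPM at 4 h, then 87.1, 92.3 and 91.5 CPM at 24 h (-0.40 ± 0.04, edgeR adjusted p = 1.01e-07). TOP2A, the topoisomerase that untangles chromosomes, went from 194, 191 and 192 CPM at 4 h to 147, 151 and 157 CPM at 24 h (-0.34 ± 0.04, edgeR adjusted p = 2.72e-07), with DMSO at 185 to 195 CPM. ASPM, a spindle pole protein, fell from 259, 281 and 278 CPM to 168, 217 and 228 CPM (-0.42 ± 0.04, edgeR adjusted p = 1.93e-07). ANLN, which shapes the cleavage furrow, fell from 274, 279 and 270 CPM to 217, 224 and 228 CPM (-0.30 ± 0.03, edgeR adjusted p = 7.71e-07). For these 4 genes each 24 h library was below each 4 h library, and for TOP2A, HMMR and ANLN also below each DMSO library.

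GAS2L3 and DIAPH3 are not in the list. GAS2L3, a cytoskeletal protein of the dividing cell, fell from 51.0, 55.7 and 59.6 CPM to 37.9, 42.8 and 41.3 CPM (-0.45 ± 0.05, edgeR adjusted p = 3.09e-06). DIAPH3, a formin that builds actin filaments, fell from 265, 286 and 288 CPM to 201, 224 and 238 CPM (-0.34 ± 0.03, edgeR adjusted p = 1.44e-07). ARHGAP11A, a regulator of cytokinesis already counted in the list, and its near copy ARHGAP11B, which is not in it, fell by 0.43 and 0.51, but reads of the 2 copies may be split between them, so their values are uncertain.

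Promoters of the fallen mitotic genes were searched in the same way. The 6 letters TTTGAA of the cell cycle genes homology region, on either strand, were in 62.2% of the 82 windows of 69 fallen mitotic genes, and CCAAT was in 65.9%, beside 11.5% and 34.5% of all 20061 windows. A window was found for 69 of the 83 genes. For the fading and appearing classes over all called genes too few symbols had a window, so no share is given. The GATA sequence AGATAA, on either strand, was in 2.44% of the mitotic windows and in 6.88% of all windows. Since the check over the cholesterol list is void, these shares do not set the lists apart. They are a description without a test, and several windows of 1 gene overlap. The leading mitotic genes are shown with both motifs in capitals: TOP2A at chr17:40417897-40418096 (minus strand), HMMR at chr5:163460432-163460631 (plus strand) and ASPM at chr1:197146670-197146869 (minus strand). In HMMR 2 copies of TTTGAA stand side by side and a CCAAT overlaps its reverse ATTGG, and TTCAAA in TOP2A and ASPM is the reverse of TTTGAA.
TOP2A: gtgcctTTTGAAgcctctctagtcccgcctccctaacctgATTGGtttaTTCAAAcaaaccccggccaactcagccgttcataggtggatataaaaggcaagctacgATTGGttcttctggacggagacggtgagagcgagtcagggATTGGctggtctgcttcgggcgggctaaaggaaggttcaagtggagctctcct
HMMR: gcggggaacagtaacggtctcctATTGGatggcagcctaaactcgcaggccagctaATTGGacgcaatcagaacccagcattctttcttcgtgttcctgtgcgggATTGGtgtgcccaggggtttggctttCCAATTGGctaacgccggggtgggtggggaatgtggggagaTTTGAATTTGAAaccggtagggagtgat
ASPM: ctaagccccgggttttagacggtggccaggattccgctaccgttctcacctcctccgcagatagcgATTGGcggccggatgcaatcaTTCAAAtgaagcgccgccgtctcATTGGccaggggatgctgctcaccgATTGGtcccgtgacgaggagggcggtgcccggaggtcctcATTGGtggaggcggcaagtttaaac

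Other genes of S phase and repair gave fewer calls. Of 69 DNA replication genes 7 fell (10.1%, beside 2.44% of all genes) and 0 rose, with a median of -0.05, and all 7 were appearing. The list lay below DMSO at 4 h already, with medians of -0.08, -0.04 and -0.08 in replicates 2, 3 and 4 and 46 to 52 members below, and at 24 h with medians of -0.14, -0.12 and -0.09 and 56 to 62 members below. They included DBF4, the activator of the kinase that fires origins (-0.34 ± 0.06, edgeR adjusted p = 0.00028), and RRM2, which supplies deoxynucleotides (-0.17 ± 0.03, edgeR adjusted p = 0.00313). Of 23 genes for origin licensing and the replicative helicase 3 were called, with a median of -0.01. Homologous recombination and Fanconi genes stood between, with 7 of 21 lower (33.3%, beside 2.44% of all genes), 0 higher and a median of -0.14. PARPBP fell from 66.7, 71.5 and 74.8 CPM to 54.5, 57.1 and 60.7 CPM (-0.31 ± 0.05, edgeR adjusted p = 6.19e-05), and the base excision repair gene NEIL3 fell by 0.33. Of 23 genes for G1 control edgeR called 0, with 3 at an unadjusted p under 0.05, and DESeq2 called 0. The one with the smallest p, RBL1, a pocket protein, had a log2 fold change of -0.11 ± 0.04 (edgeR adjusted p = 0.112).

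Replication-dependent histones, which are transcribed in S phase, were lower in part. Of 57 tested genes 27 were lower (47.4%, beside 2.44% of all genes) and 0 higher, with a median of -0.15, and 26 of the 27 were appearing. H3C2 stood at 92.0, 70.6 and 78.7 CPM in DMSO, 83.7, 66.4 and 69.1 CPM at 4 h, then 70.4, 52.3 and 53.6 CPM at 24 h (-0.32 ± 0.05, edgeR adjusted p = 3.74e-05). Replicate 2 was the highest at each of these times, so the 4 h and 24 h groups overlapped although each pair fell. The linker histones H1-3, H1-5 and H1-2 fell by 0.35, 0.24 and 0.18. Histone genes are near-identical copies, and reads may have been assigned to the wrong member. The number of histone genes called lower was 0 without the block, 2 with DESeq2, 6 without replicate 3 and 16 without replicate 4.

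**Figure D3:**
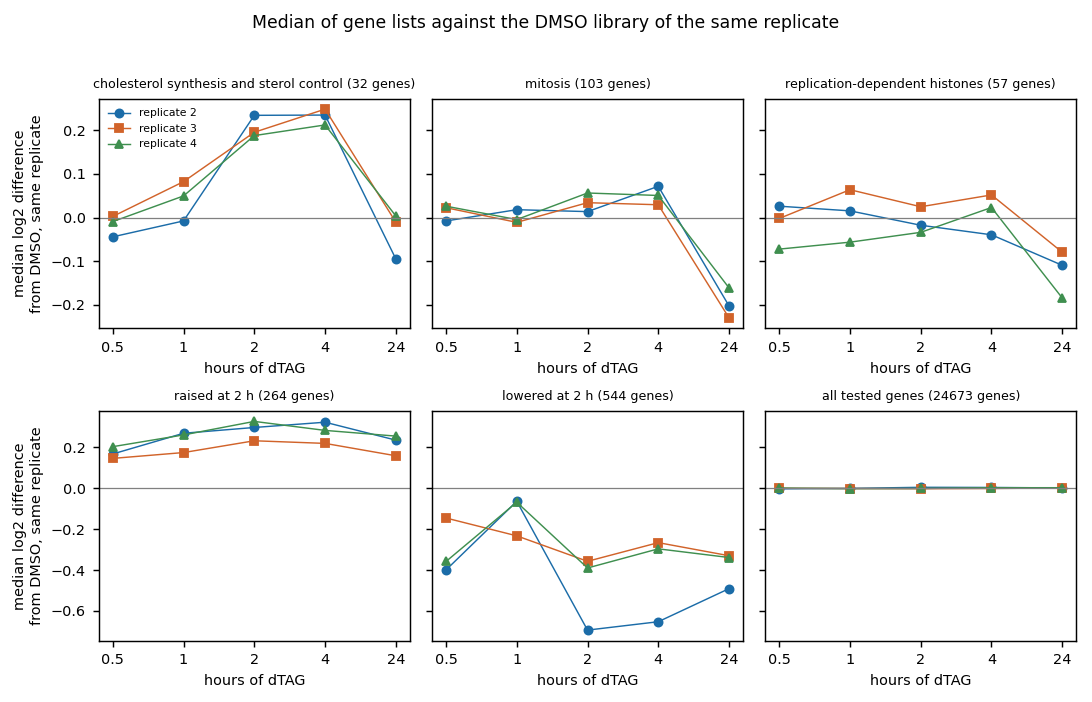
Median log2 difference from the DMSO library of the same replicate, after 0.5 to 24 h of dTAG, for 3 gene lists, the genes picked at 2 h in either direction, and all tested genes, with a line for each of replicates 2, 3 and 4. The cholesterol list rises to 0.21 to 0.25 at 4 h and ends at -0.09 to 0.004, while the mitosis list stays within 0.03 to 0.07 at 4 h and ends at -0.23 to -0.16.

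How much of the early response persisted was asked with genes picked on other libraries. At 2 h against DMSO in the same replicates, 264 genes were raised (1.05% of those tested) and 554 were lowered (2.2%) by edgeR with the block. None of the libraries that picked them is in the comparison of 24 h with 4 h, though they share its harvests. Of the 264 raised genes, 55 (20.8%) fell from 4 h to 24 h, beside 2.44% of all genes. Another 14 (5.30%) rose further, beside 1.84% of all genes. The median log2 fold change of the 264 genes from 4 h to 24 h was -0.05, and 183 were below 0. Of the 544 lowered genes that were tested, 60 (11.03%) rose from 4 h to 24 h, beside 1.84% of all genes. Another 18 (3.31%) fell further, beside 2.44% of all genes, and the median of the 544 was 0.03. Against DMSO the raised genes had medians of 0.32, 0.22 and 0.28 at 4 h and 0.23, 0.16 and 0.25 at 24 h in replicates 2, 3 and 4. The lowered genes had medians of -0.65, -0.27 and -0.30 at 4 h and -0.49, -0.33 and -0.34 at 24 h, so only replicate 2 stood nearer to DMSO at 24 h. That replicate stood apart in the lowered genes at 2 h too, at -0.69 beside -0.36 and -0.39. The lowered genes had no steady course before 2 h, with medians of -0.40, -0.15 and -0.36 at 0.5 h and -0.06, -0.23 and -0.07 at 1 h. For the raised genes the medians were 0.17, 0.15 and 0.20 at 0.5 h and 0.27, 0.17 and 0.26 at 1 h. The part of differences between libraries in these values was not tested. Because the DMSO libraries helped to pick these genes, their distance from DMSO is a description. Without replicate 3, 17 of 150 raised genes fell and 21 of 316 lowered genes rose, beside 0.969% and 0.895% of all genes. With DESeq2 4 of 59 fell and 0 of 108 rose, beside 0.235% and 0.0567% of all genes.

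HMGCS1 was among the 4 raised genes with the smallest p at 2 h that then fell. GSTM5, a glutathione transferase, kept most of its rise, with 55.0 to 60.7 CPM in DMSO, 85.3 to 89.4 CPM at 4 h and 78.9 to 80.6 CPM at 24 h (-0.14 ± 0.04, edgeR adjusted p = 0.0529). Its reads overlap those of GSTM3 on the opposite strand and of the overlapping gene ENSG00000241720, which gave nearly the same values. The unnamed gene ENSG00000259345 fell by 0.20 and likewise stayed above DMSO. Of the lowered genes, ADIRF, an adipogenesis regulatory factor, stood at 35.8, 32.2 and 32.2 CPM in DMSO, 27.4, 24.6 and 23.4 CPM at 4 h, then 32.7, 30.2 and 26.7 CPM at 24 h (0.25 ± 0.07, edgeR adjusted p = 0.0433), so each pair rose while the groups overlapped. CUX2, a homeobox factor, rose from 59.6, 54.6 and 62.3 CPM to 62.6, 67.6 and 67.6 CPM and remained below the 78.2 to 90.9 CPM of DMSO (0.17 ± 0.05, edgeR adjusted p = 0.056). DEGS2, a sphingolipid enzyme, rose by 0.16. TSPAN18 was called at 0.65 ± 0.17 (edgeR adjusted p = 0.0313), but its levels were 5.47, 5.79 and 3.32 CPM at 4 h, then 5.45, 12.7 and 4.29 CPM at 24 h, so replicate 3 rose most and replicate 2 did not rise, and its log2 fold change was -0.27 in the fit of all 23 libraries. TP53I11 overlaps TSPAN18 on the other strand with more reads, as MMRN2 does ADIRF and EVL does DEGS2.

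The largest fall among genes with at least 100 counts per library on average was in ZBTB16 (chr11:114059041-114256765), a zinc-finger repressor that responds to progestins and glucocorticoids. It stood at 72.4, 85.1 and 80.6 CPM in DMSO, 64.8, 72.9 and 87.2 CPM at 4 h, then 44.2, 42.1 and 48.3 CPM at 24 h. Every 24 h library was below every library of the earlier times, and the fall from 4 h was -0.75 ± 0.05 (edgeR adjusted p = 1.27e-10). The log2 difference from DMSO was 0.36 ± 0.06 at 0.5 h and 0.25 ± 0.06 at 1 h, had gone to 0.11 ± 0.06 at 2 h and to -0.09 ± 0.06 at 4 h, and ended at -0.84 ± 0.06 at 24 h. Of 29 listed genes of steroid receptors other than estrogen receptor, 2 fell (6.90%, beside 2.44% of all genes) and 4 rose (13.8%, beside 1.84%), with a median of 0.01. ZBTB16, described here because its fall was the largest, is 1 of the 2, and ACSL1 is the other. Among those that rose, WNT4, a progestin-induced ligand, had a log2 fold change of 0.46, and IGFBP5, an IGF-binding protein, came back in part from 360, 353 and 375 CPM to 421, 401 and 438 CPM, each below the 477, 433 and 442 CPM of its own DMSO library (0.21 ± 0.03, edgeR adjusted p = 7.59e-05). KRT23, a keratin, went from 24.5, 26.3 and 19.9 CPM in DMSO to 20.01, 19.1 and 20.3 CPM at 4 h, then 13.9, 14.3 and 12.6 CPM at 24 h (-0.53 ± 0.09, edgeR adjusted p = 0.000334). An antisense gene overlaps it.

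Other large falls faded. SLC7A11, the cystine importer and a target of the stress factor ATF4, stood at 7.42 to 9.29 CPM in DMSO, 11.1, 12.3 and 10.1 CPM at 4 h, then 7.30, 7.11 and 7.97 CPM at 24 h (-0.60 ± 0.12, edgeR adjusted p = 0.00364). AARS1, the alanyl-tRNA synthetase, was the only other of 37 genes of the unfolded protein and integrated stress response that was called, at -0.16 ± 0.04 (edgeR adjusted p = 0.0217). That list had 5.41% of its members called lower, beside 2.44% of all genes. CYBA, a subunit of NADPH oxidase, went from 13.7, 14.3 and 13.6 CPM at 4 h to 8.60, 9.91 and 10.9 CPM at 24 h (-0.49 ± 0.10, edgeR adjusted p = 0.00562), and DMSO was at 7.80 to 10.4 CPM. KANSL1-AS1 fell by 0.44, with a log2 difference from DMSO of 0.21 ± 0.14 at 4 h and -0.22 ± 0.14 at 24 h. It thus lay on the dividing line between the classes, and KANSL1 covers it on the other strand with far more reads.

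The genes that rose most were of many kinds. NOL4L, a nucleolar protein-like gene, went from 20.9, 23.1 and 23.2 CPM at 4 h to 32.2, 34.8 and 34.9 CPM at 24 h (0.60 ± 0.07, edgeR adjusted p = 1.28e-06), above its 26.5 to 31.7 CPM in DMSO. PLXND1, a semaphorin receptor, was a rise that faded: it stood at 16.5, 13.9 and 15.5 CPM in DMSO, 9.18, 9.83 and 10.2 CPM at 4 h, then 13.8, 13.1 and 14.7 CPM at 24 h (0.50 ± 0.10, edgeR adjusted p = 0.00439). Another semaphorin receptor, PLXNA2, rose from 9.27, 9.28 and 8.95 CPM to 15.1, 11.6 and 14.02 CPM (0.54 ± 0.11, edgeR adjusted p = 0.00362), and SYT17, a synaptotagmin, rose from 24.0, 30.6 and 29.2 CPM to 39.6, 37.0 and 42.4 CPM (0.48 ± 0.07, edgeR adjusted p = 6.19e-05). ATXN1, a transcriptional corepressor, rose from 155, 161 and 161 CPM to 192, 192 and 205 CPM and past the 168 to 178 CPM of DMSO (0.30 ± 0.03, edgeR adjusted p = 1.54e-06). NPNT, a matrix ligand of integrins, rose from 114, 129 and 124 CPM to 143, 165 and 161 CPM (0.35 ± 0.04, edgeR adjusted p = 2.52e-07), with INTS12 overlapping it on the other strand. ACE, BIK, NEIL1 and SMARCD3, which encode a peptidase, a promoter of apoptosis, a DNA glycosylase and a chromatin remodeling subunit, rose by 0.59, 0.51, 0.50 and 0.48. NEIL1 and SMARCD3 are overlapped on the other strand by MAN2C1 and CHPF2. SYT17 and ACE are overlapped on their own strand by ENSG00000261427 and ENSG00000264813. Values of NEIL1, SMARCD3, SYT17 and ACE are uncertain for this reason.

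TGFB2, a secreted growth inhibitor, rose from 20.3, 21.2 and 22.4 CPM to 26.9, 25.7 and 29.0 CPM (0.34 ± 0.07, edgeR adjusted p = 0.0052), and moved further from its 18.8 to 19.7 CPM in DMSO. It was the only called gene of 16 YAP and TEAD targets (6.25% higher, beside 1.84% of all genes). IRS1, an adaptor of insulin signaling, also moved further, from 114, 108 and 108 CPM at 4 h to 122, 119 and 124 CPM at 24 h, against 90.9 to 102 CPM in DMSO (0.14 ± 0.04, edgeR adjusted p = 0.0332).

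**Figure D4:**
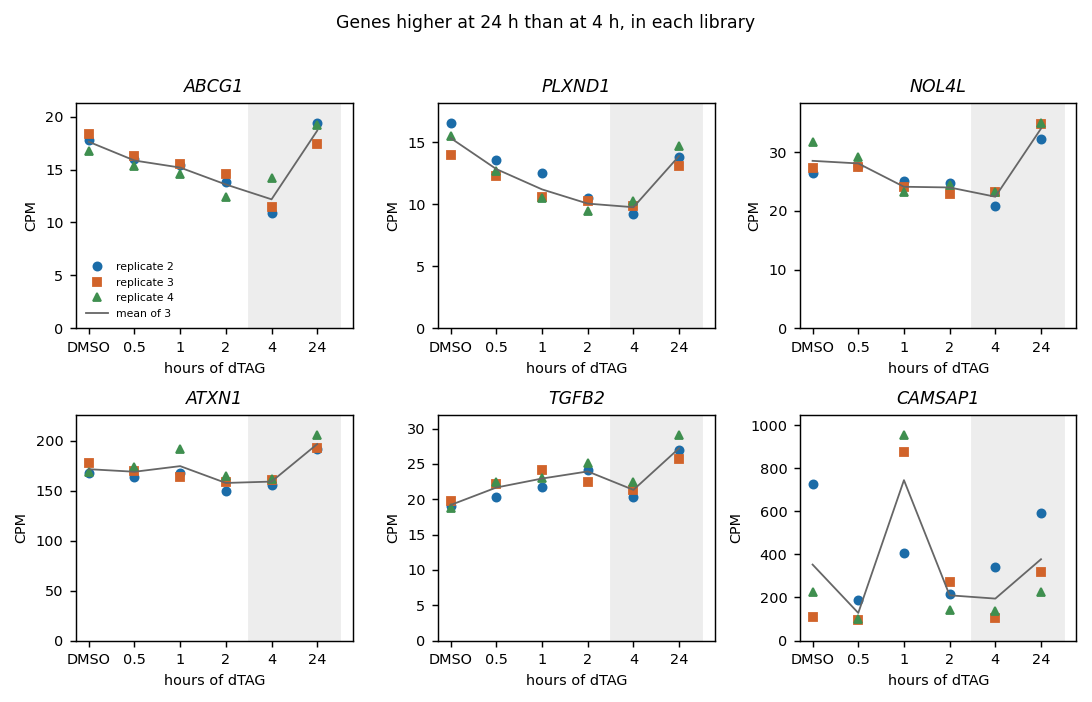
CPM of 6 genes called higher at 24 h than at 4 h, in DMSO and after 0.5 to 24 h of dTAG (shaded: the 2 compared times), with a symbol for each of replicates 2, 3 and 4 and a line through the means. ABCG1 and PLXND1 dip to 4 h and recover, NOL4L, ATXN1 and TGFB2 end above every DMSO library, and CAMSAP1 scatters from 96.7 to 953 CPM with no order by time.

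Of the risers with at least 100 counts per library on average, the 3 with the largest fold changes had libraries in other groups that stood as far apart as the compared times. CAMSAP1, a microtubule minus-end protein, was at 344, 105 and 136 CPM at 4 h, then 592, 317 and 223 CPM at 24 h (1.02 ± 0.08, edgeR adjusted p = 2.15e-09), but at 726, 107 and 225 CPM in DMSO. TMEM140 was at 2.83, 1.903 and 5.63 CPM at 4 h, then 6.21, 16.4 and 20.7 CPM at 24 h (2.11 ± 0.18, edgeR adjusted p = 5.87e-09), but at 20.6, 1.31 and 3.18 CPM in DMSO. LRMDA was at 23.8, 23.8 and 20.2 CPM at 4 h, then 83.1, 43.7 and 59.2 CPM at 24 h (1.40 ± 0.09, edgeR adjusted p = 7.77e-11), but at 66.3 CPM in replicate 2 at 2 h beside 16.8 and 19.3 CPM in the others. For CAMSAP1 the groups at 4 h and 24 h overlapped, and CYREN overlaps TMEM140 on the other strand with more reads.

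Estrogen-induced genes moved in both directions. Of 58 tested, 5 rose (8.62%, beside 1.84% of all genes) and 3 fell (5.17%, beside 2.44%), with a median of 0.01. MYB, a proliferation factor, and GFRA1, a receptor subunit for glial cell line-derived neurotrophic factor, had dropped by 4 h and came back in part or in full. MYB went from 43.5, 44.7 and 45.2 CPM to 52.0, 51.5 and 55.1 CPM against 52.1 to 65.0 CPM in DMSO (0.24 ± 0.05, edgeR adjusted p = 0.00576). GFRA1 went from 20.8, 20.3 and 19.01 CPM to 27.2, 23.6 and 25.1 CPM against 23.7 to 27.8 CPM in DMSO (0.33 ± 0.08, edgeR adjusted p = 0.0119). The chaperone HSPB8 fell by 0.18 towards DMSO and the cofactor FHL2 by 0.16 away from it.

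Among receptors, FGFR1, a fibroblast growth factor receptor, returned to DMSO: it was at 39.5, 35.3 and 37.8 CPM in DMSO, 29.3, 27.3 and 31.2 CPM at 4 h, then 38.3, 38.4 and 35.6 CPM at 24 h (0.36 ± 0.07, edgeR adjusted p = 0.00166). EPHA4, an ephrin receptor, rose by 0.25 and likewise faded. Of the 22 luminal markers 3 rose (13.6%, beside 1.84% of all genes) and 1 fell (4.55%, beside 2.44%). Among them SPDEF and ELF3 rose by 0.14 and 0.19 and KRT19 fell by 0.10. SPDEF, a luminal ETS factor, moved back towards DMSO, at 85.5 to 98.4 CPM in DMSO, 76.8 to 80.4 CPM at 4 h and 83.1 to 89.2 CPM at 24 h. Of 30 hypoxia and glycolysis genes 4 rose (13.3%, beside 1.84% of all genes) and 0 fell, with a median of 0.05. They were the glycolytic enzymes PFKP and GPI (0.23 and 0.26), the collagen hydroxylase P4HA2 (0.31) and the glycolysis regulator PFKFB3 (0.12).

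**Figure D5:**
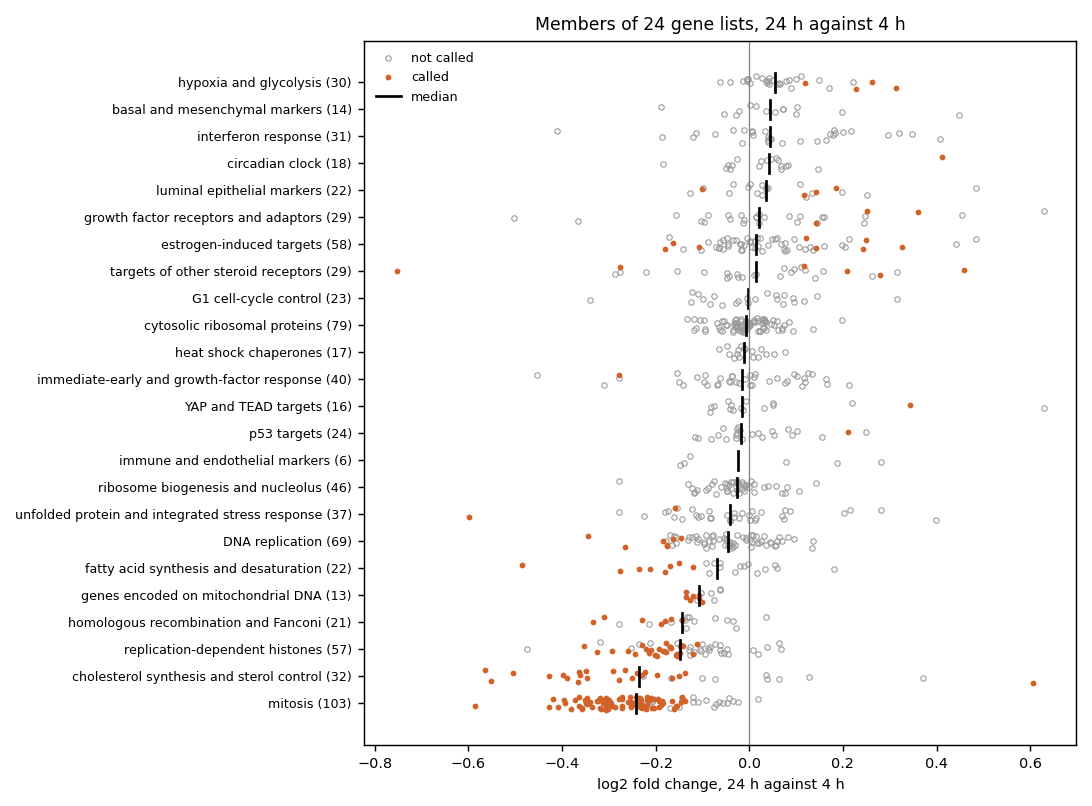
Log2 fold change from 4 h to 24 h of each tested member of 24 gene lists, ordered by the list's median (black bar), with called genes filled and the number of tested members in parentheses. Mitosis and cholesterol synthesis have the lowest medians, both at -0.24, and the lists for ribosomal proteins, heat shock and G1 control sit near 0 with no called member.

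Several programmes gave few calls or none. Of 79 cytosolic ribosomal protein genes, 46 genes of ribosome biogenesis, 17 heat shock chaperones and 31 interferon-response genes, edgeR called 0, with medians of -0.01, -0.03, -0.01 and 0.04. At an unadjusted p under 0.05 there were 5, 5, 1 and 5, and DESeq2 called 0. The members with the smallest p were RPS25 (-0.11 ± 0.04, edgeR adjusted p = 0.128), NOP58 (-0.12 ± 0.04, edgeR adjusted p = 0.153), FKBP4 (0.08 ± 0.04, edgeR adjusted p = 0.349) and PARP14 (0.18 ± 0.06, edgeR adjusted p = 0.107). One of 40 immediate-early genes (2.5%, beside 2.44% of all genes), FOSB, fell by 0.28. Of 24 p53 targets 1 (4.17%, beside 1.84% of all genes), PHLDA3, rose by 0.21. Of 18 genes of the circadian clock 1 was called, a rise (5.56%, beside 1.84% of all genes). Of 13 genes encoded on mitochondrial DNA 7 (53.8%, beside 2.44% of all genes) fell by 0.10 to 0.14, but their level differed more between replicates than between times: MT-ND5 was at 1568, 1762 and 2254 CPM at 4 h, then at 1466, 1572 and 2052 CPM at 24 h. The share of counts from mitochondrial genes was 2.11% to 3.13% at 4 h and 2.13% to 2.86% at 24 h.

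Replicate 1, which is not in the comparison, has libraries at 4 h and in DMSO and shows whether the level at 4 h was raised there too. Of the 22 cholesterol genes called lower at 24 h, 20 were higher at 4 h than in DMSO in replicate 1, with a median log2 difference of 0.29, beside a median of -0.01 and 11788 of 24673 over all genes. Of the 83 called mitosis genes 39 were higher, with a median of -0.01. Of the 27 called histone genes 25 were higher in replicate 1, with a median of 0.16, while in replicates 2 to 4 26 of them lay nearer to DMSO at 4 h than at 24 h. Replicate 1 is 1 harvest, and its 4 h library had the lowest total count of the 23, 4408544, with 6.50% of counts from mitochondrial genes. The part of depth and mitochondrial share in these values was not tested.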

How the data were processed

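PRO-seq libraries of T47D dTAG-TRPS1 Clone 28 were analysed from the table that the authors deposited, which holds raw read counts per gene for 60605 Ensembl identifiers and 23 libraries, whole numbers with no normalization. Per the study's methods and the submitters' processing notes, the authors removed adapters with cutadapt 1.8.1, collapsed duplicates by molecular identifier, discarded ribosomal DNA reads, aligned to hg38 with Bowtie2 2.4.4, used SAMtools 1.9 and counted with bedtools. Which annotation was counted, and whether by strand, is not given in the sources used here, so values of overlapping and antisense genes are uncertain. Groups and replicate numbers came from the sample titles. Symbols and spans came from GENCODE 44, which matched 60463 identifiers.

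Counts were tested in R 4.3.3 with edgeR 4.0.16 (glmQLFit, glmQLFTest; filterByExpr with a minimum count of 10 and total of 15; TMM scaling) with replicate as a block, and genes at a Benjamini-Hochberg adjusted p under 0.1 were called. Deviations from the group mean correlated at 0.167, 0.137 and 0.144 between same-numbered 4 h and 24 h libraries, all over the 0.1 set for pairing, beside the shared harvest that the labels give. CPM values were scaled over the 18 libraries of replicates 2 to 4. The SE was taken as the size of the log2 fold change over the root of its F statistic. Named genes were TRPS1; the 12 largest rises and falls and the 6 smallest p in each direction with at least 100 counts per library on average and all 3 pairs agreeing; up to 4 called members per list, or the smallest p where none was called; and 4 genes per direction from those picked at 2 h. Members and lists were chosen with earlier results of these data known. With the block, p-values measure how the differences between times varied from replicate to replicate, in cultures of 1 clone. Scripts were tested on simulated data. Alternatives were no block, median-of-ratios or no scaling factors, no count filter, DESeq2 1.42.0, fits of 18 or 23 libraries, and leaving out each replicate. Motifs were matched in RefSeq promoter windows. A few named genes are not reported here.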

Additional observations from a re-analysis of the deposited data

How the results depend on the processing

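The replicate block and the choice of test set the number of calls. All 1056 called genes kept their sign without the replicate block, with DESeq2, under both other scalings, without the count filter and in the fit of 18 libraries, 1049 did in the fit of 23 libraries, and 1053 to 1054 when a replicate was left out. Since all these fits share 4 h and 24 h libraries with the main fit, a kept sign is not an independent check. Called, higher and lower genes numbered 35, 6 and 29 with no replicate block, 72, 14 and 58 with DESeq2, 583, 270 and 313 in the fit of 18 libraries, and 460, 186 and 274 in the fit of 23 libraries. Leaving out 1 replicate gave 452 to 1003 called, 217 to 428 higher and 235 to 575 lower, the fewest without replicate 3. Genes with p under 0.05 before adjustment numbered 3385, 1775 without the block and 549 with DESeq2.

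List members called fell from 190 to 21 with no replicate block and 37 with DESeq2, and to between 95 and 176 without a replicate. With no block and with DESeq2 respectively, 7 and 8 cholesterol genes, 1 and 2 fatty acid genes, 11 and 21 mitosis genes and 0 and 2 histone genes were lower. In the fits of 18 and 23 libraries 4 and 5 fatty acid genes and 15 and 12 histone genes were lower. Without a replicate the ranges were 16 to 21 for cholesterol, 3 to 8 for fatty acids, 50 to 78 for mitosis and 6 to 26 for histones. Genes raised at 2 h and then lower numbered 55 of 264, but 1 of 13 with no block and 4 of 59 with DESeq2. Genes lowered at 2 h and then higher numbered 60 of 544, but 0 of 1 and 0 of 108 in those fits. When a replicate was left out, 17 to 33 of 128 to 251 raised genes and 21 to 43 of 316 to 413 lowered genes did so. Of all genes, 2.44%, 0.118% and 0.235% were called lower in the main, no-block and DESeq2 fits, and 1.84%, 0.0243% and 0.0567% higher. The appearing share of genes called higher was 48.7%, but 55.2% with total counts and 41.4% to 54.3% without a replicate. With no block it was 33.3%, a share of only 6 genes. Among genes called lower the appearing share was 66.6%, but 61.9% with total counts and 61.3% to 70.3% without a replicate. TSPAN18 reversed to -0.27 in the fit of 23 libraries. The cause of these differences was not tested. Of 90 named genes, 65 changed their call without the block and 33 of 63 with an adjusted p from DESeq2.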

Other observations

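Called genes were more often protein-coding than the genes tested, at 83.3% of those higher and 76.2% of those lower at 24 h, beside 62.6% of all 24673. Their protein-coding members were also longer, with median spans of 67.6 kb among genes called higher and 58.2 kb among those called lower, beside 38.6 kb over all tested genes. The share that overlapped another gene on the same strand was 39.6% and 41.5%, beside 40.9%. Longer genes collect more reads, and no test was made of these shares.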
